A study of Mus musculus with 6 samples.

Results

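The genes described here belong to the integrated stress response and the unfolded protein response, and there are 10 of them among 18193 genes measured in mouse tongue. They were chosen by name. Atf4, Atf3, Ddit3, Trib3, Asns, Psat1 and Phgdh stand for the ATF4 branch (7 genes), and Hspa5, Xbp1 and Herpud1 for the branch of ER (endoplasmic reticulum) chaperones and XBP1 (3 genes). Total RNA was taken from tongue tissue of individual mice of the inbred strain C57BL/6J, and the labels give no age. For 8 weeks, 3 mice drank 4NQO (4-nitroquinoline 1-oxide, a carcinogen that damages DNA) at 100 μg/ml, and 3 untreated mice of the same strain served as controls. Each tongue was hybridized to 1 Affymetrix mouse array, and the labels name no transgene or deletion. Values are log2 signals per probe set, and each gene is given by its brightest probe set unless stated. A difference of 1 on this scale is a 2-fold change.

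Cells slow protein synthesis under amino acid shortage, heme shortage, viral RNA or misfolded protein in the ER. Kinases that sense each of these phosphorylate the initiation factor eIF2, and the mRNA of ATF4 is then translated better while most others are translated less. ATF4 is a transcription factor that turns on genes of amino acid synthesis and uptake, and under lasting stress it turns on CHOP, the product of Ddit3. In the unfolded protein response the sensors IRE1 and ATF6 act beside the kinase PERK, and they raise ER chaperones through XBP1 and through ATF6 itself. ATF4 is controlled largely by translation and XBP1 by splicing of its mRNA. Neither step was measured on these arrays.

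The promoters of 4 of the genes are shown because they carry letters known from the binding sites of these factors. All 10 genes were matched by symbol to the RefSeq promoter table of GRCm38.p6, which holds 250 bases before and 50 bases after each start. Both strands were searched for TGATGNAA (the ATF4 response element, CARE), CCAAT and CCACG separated by 9 bases (the ER stress element, ERSE), ATTGG and CCACG separated by 1 base (ERSE-II), TGACGTGG (UPRE) and TGACGTCA (CRE). No match overlapped another in the 10 promoters. Capitals mark the matches.
Asns, chr6:7693210-7693309, minus strand, CARE: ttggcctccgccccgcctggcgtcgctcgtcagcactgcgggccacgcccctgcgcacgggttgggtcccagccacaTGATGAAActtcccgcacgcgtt
Atf3, chr1:191183384-191183483, minus strand, CARE on the reverse strand: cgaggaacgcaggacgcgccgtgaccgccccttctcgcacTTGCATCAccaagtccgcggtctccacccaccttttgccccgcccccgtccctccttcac
Herpud1, chr8:94386299-94386398, plus strand, CARE on the reverse strand and ERSE-II: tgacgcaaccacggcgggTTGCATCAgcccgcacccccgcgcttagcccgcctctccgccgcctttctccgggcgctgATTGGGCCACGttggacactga
Hspa5, chr2:34771990-34772089, plus strand, ERSE: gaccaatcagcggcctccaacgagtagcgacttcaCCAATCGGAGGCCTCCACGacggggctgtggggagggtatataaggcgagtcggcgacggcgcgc
The CARE letters stood in 4 of the 10 genes, also in Trib3 just after its start, and in 3.97% of all 32851 promoters. ERSE stood in Hspa5 and in 0.119% of promoters, and ERSE-II in Herpud1 and in 0.0365%. UPRE and CRE stood in 0.676% and 1.79% of promoters and in none of the 10. A match is a stretch of letters and not a measured site.

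None of the 10 genes passed the test between 4NQO and control tongues at an adjusted p under 0.05 from limma, against 0.126% of all genes higher and 0.0055% lower. Before adjustment, 2 of the 10 (Asns and Psat1) had a limma p under 0.05 and were higher, and 0 were lower, where 6.68% of all genes were higher and 3.74% lower. SAM called 0 of them. In 3 genes (Asns, Psat1 and Xbp1) every 4NQO tongue lay above every control tongue, against 9.59% of all genes, and in 0 genes every 4NQO tongue lay below, against 7.18%. With 3 tongues against 3, a two-sided permutation test of 1 gene cannot give a p below 0.1. Tongue tissue holds epithelium, muscle, connective tissue, immune cells and minor salivary glands, so fewer cells of a type and less RNA per cell cannot be told apart.

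Median log2 signals of the arrays were 4.45 to 4.55 in 4NQO tongues and 4.57 to 4.60 in control tongues. Every 4NQO array thus had a slightly lower median than every control array. Centring each array on its median turned the small negative values of Atf4, Ddit3 and Trib3 positive, as given below. The 3′ and 5′ probe sets of Gapdh, a control for RNA integrity, differed by 1.07 on 4NQO replicate 2 and by 1.67 on control replicate 3, and by 0.086 to 0.47 on the others. The same difference for actin was 1.12, 0.95 and 0.55 in 4NQO tongues and 0.75, 0.83 and 1.01 in control tongues. It was largest on 4NQO replicate 1, so the actin control did not set the same arrays apart. Of 14 keratinocyte and 7 skeletal muscle markers, all lay above the median of every array except Ivl, at 4.25 to 4.64. Myh2, a muscle myosin, was lowest on the arrays of largest Gapdh difference, with 8.49, 5.01 and 9.31 in 4NQO tongues and 9.36, 9.01 and 5.43 in control tongues. Markers of proliferating cells were the only one of 11 marker lists whose summed signal did not overlap between groups. It was 4117 to 5356 in 4NQO tongues and 2184 to 2835 in control tongues, and 6 of its 6 measured genes lay higher in every 4NQO tongue. Other lists leaned to 1 side. All 7 muscle and 6 of 7 fibroblast markers had a negative log2 fold change, where 52.3% of all genes did. All 7 markers of macrophages and dendritic cells and 6 of 7 of each keratinocyte list were positive, where 47.7% of all genes were. The summed signal of salivary markers ran from 115 to 10924 in 4NQO tongues and from 250 to 6403 in control tongues.

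**Figure D1:**
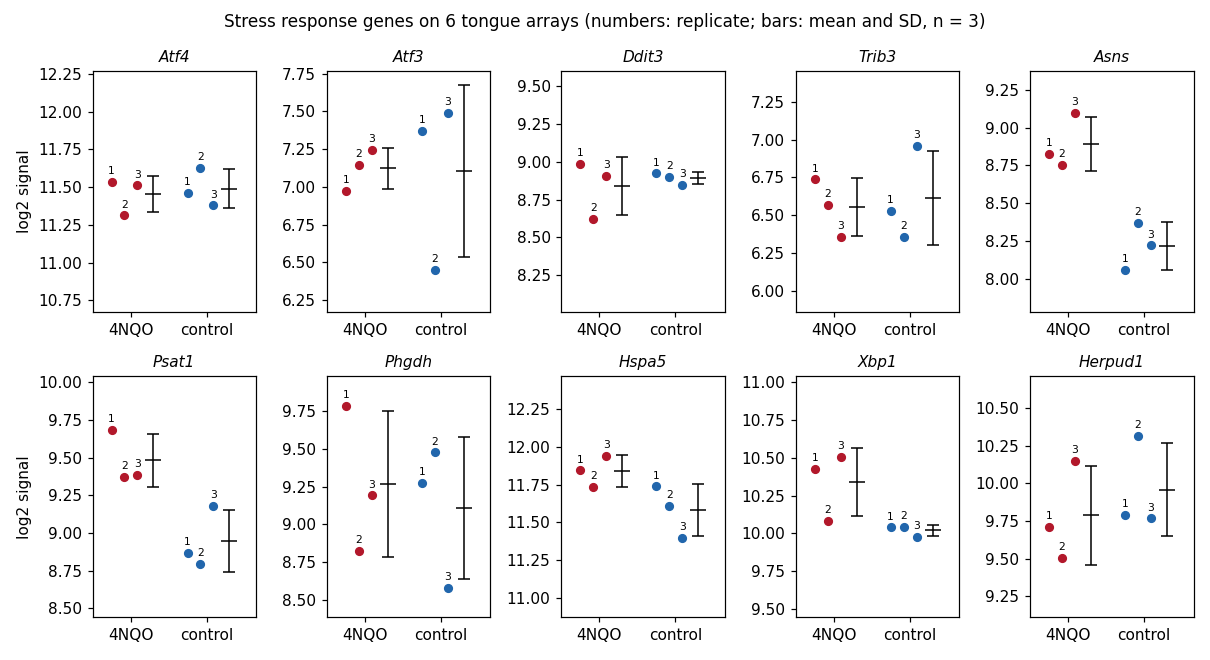
Log2 signal (y axis) of the 10 genes on each array, with 4NQO tongues left and control tongues right, replicate numbers beside the points, and the mean and SD (n = 3) beside each group. Each panel spans the same range of 1.6 on the log2 scale. Asns and Psat1 are separated between groups, and the regulators Atf4, Atf3, Ddit3 and Trib3 overlap.

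The regulators of the ATF4 branch overlapped between the groups. Atf4, which encodes the central transcription factor, had log2 signals of 11.54, 11.31 and 11.51 in 4NQO tongues and 11.46, 11.63 and 11.38 in control tongues. The groups overlapped, and control replicate 2 was the highest of all. The log2 fold change was -0.04 (standard error 0.12, 95% confidence interval -0.31 to 0.24, limma adjusted p = 0.935). A change of this gene by 1.5-fold in either direction lies outside that interval. Its dimmer probe sets, at mean signals of 5.42 and 3.69, gave 0.45 and -0.21 with overlapping groups.

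Ddit3 encodes CHOP, a transcription factor that promotes cell death under lasting stress. It had 8.99, 8.62 and 8.91 in 4NQO tongues and 8.92, 8.90 and 8.85 in control tongues. The control tongues lay close together, and 4NQO replicate 2 was the lowest of all 6. The fit gave a log2 fold change of -0.05 (95% confidence interval -0.38 to 0.27, limma adjusted p = 0.920), and the dimmer probe set gave -0.56 with overlapping groups. Trib3, a pseudokinase that ATF4 and CHOP turn on, had 6.74, 6.57 and 6.36 in 4NQO tongues and 6.53, 6.35 and 6.96 in control tongues. Its control values held both the highest and the lowest of the 6. 4NQO over control gave a log2 fold change of -0.06 (95% confidence interval -0.52 to 0.41, limma adjusted p = 0.938).

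Atf3, a transcription factor that many stresses raise quickly, varied most among control tongues. It had 6.97, 7.15 and 7.24 in 4NQO tongues and 7.37, 6.45 and 7.49 in control tongues, so control replicate 2 lay below all other tongues, and the other 2 control tongues lay above all 4NQO tongues. The mean was 7.12 ± 0.14 (SD, n = 3) in 4NQO tongues and 7.10 ± 0.57 (SD, n = 3) in control tongues. The 95% confidence interval of the log2 fold change, -0.61 to 0.65, is wide, and a change of 1.5-fold was not detectable for this gene.

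Asns and Psat1, enzymes that ATF4 is known to turn on, lay higher in every 4NQO tongue. Asns, asparagine synthetase, had 8.83, 8.76 and 9.10 in 4NQO tongues and 8.06, 8.37 and 8.22 in control tongues. The lowest 4NQO tongue lay above the highest control tongue, and the spread within each group was at most 0.34. The log2 fold change was 0.68 (standard error 0.15, 95% confidence interval 0.32 to 1.03, limma adjusted p = 0.173), a fold of 1.60, and 1.30% of all genes had a smaller p. The other probe set of Asns, with 7.16, 6.84 and 7.16 in 4NQO tongues and 5.96, 6.61 and 6.01 in control tongues, gave 0.86 with groups that did not overlap either.

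Psat1 is the aminotransferase of serine synthesis. It had 9.69, 9.37 and 9.38 in 4NQO tongues and 8.87, 8.80 and 9.18 in control tongues. The groups were apart by less than for Asns, since control replicate 3 lay close to the lowest 4NQO tongues. The fit gave a log2 fold change of 0.53 (standard error 0.16, 95% confidence interval 0.17 to 0.90, limma adjusted p = 0.290), a fold of 1.45, and 3.30% of all genes had a smaller p. The other probe set of Psat1 gave 0.82, again without overlap. Asns, Psat1 and the summed signal of proliferating cells were each higher in every 4NQO tongue. Among 4NQO tongues, Asns and Psat1 were lowest on replicate 2, where that sum was highest (5356). Among control tongues, Psat1 was highest on replicate 3, where the sum was highest too (2835). These orders of Psat1 are those of its brightest probe set. The other probe set had 8.73, 8.23 and 7.95 in 4NQO tongues and 7.42, 7.55 and 7.48 in control tongues. It was lowest among 4NQO tongues on replicate 3, where the sum was lowest (4117), and highest among control tongues on replicate 2. The part of proliferating cells in Asns and Psat1 was not tested.

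Phgdh, the dehydrogenase that opens serine synthesis, overlapped on its brightest probe set. It had 9.79, 8.83 and 9.19 in 4NQO tongues and 9.28, 9.48 and 8.58 in control tongues. The lowest array of each group was the one with the largest difference between 3′ and 5′ Gapdh signal, 4NQO replicate 2 and control replicate 3. The part of RNA quality in this was not tested. Without both of these arrays the log2 fold change was 0.11. With all arrays, 4NQO over control gave a log2 fold change of 0.16 (95% confidence interval -0.53 to 0.85, limma adjusted p = 0.883), and it was -0.10 without 4NQO replicate 1 and -0.11 without control replicate 3. The other 3 probe sets annotated to Phgdh alone gave 0.44, 0.54 and 0.23, and groups did not overlap on 1 of them. A probe set only slightly dimmer than the brightest one (mean signals 9.17 and 9.19) had 9.79, 9.03 and 9.36 in 4NQO tongues and 8.80, 9.25 and 8.79 in control tongues, so which probe set stands for the gene moved its value.

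**Figure D2:**
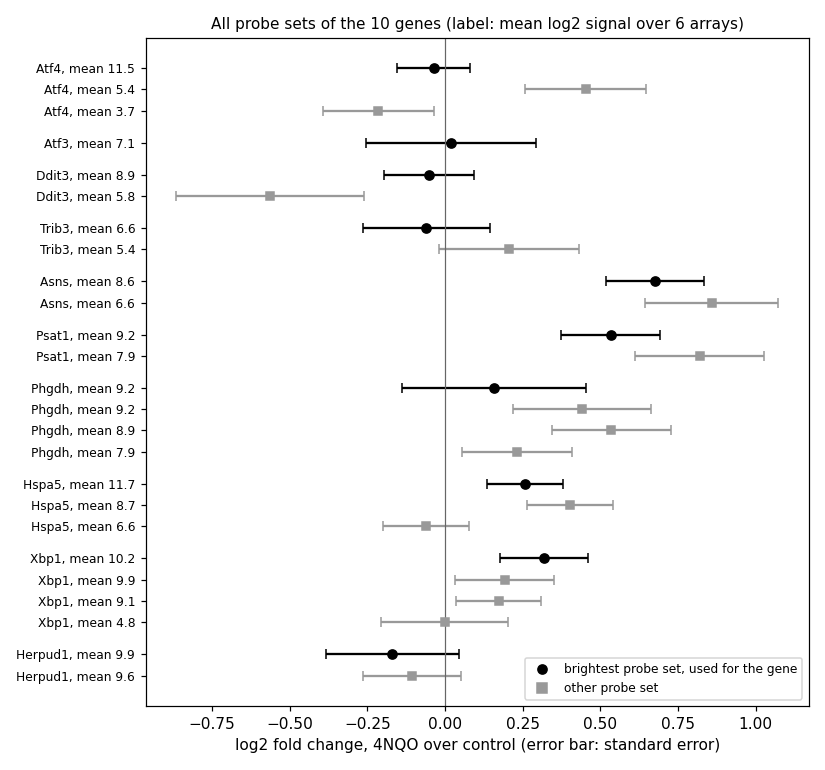
Log2 fold change of 4NQO over control (x axis, error bars standard errors, n = 3 each) for all 25 probe sets annotated to 1 of the 10 genes alone, each row labelled by gene and mean log2 signal, with black circles for the brightest probe set of a gene and grey squares for the others. All probe sets of Asns, Psat1 and Phgdh lie above 0, while those of Atf4 and Trib3 lie on both sides of 0.

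The genes of the ER branch had small values, 2 of them positive. Hspa5 encodes BiP, the main chaperone of the ER. It had 11.85, 11.73 and 11.94 in 4NQO tongues and 11.74, 11.61 and 11.40 in control tongues. The groups overlapped slightly, at 4NQO replicate 2 and control replicate 1. The log2 fold change was 0.26 (standard error 0.12, 95% confidence interval -0.03 to 0.54, limma adjusted p = 0.519). That interval holds no rise of 1.5-fold, but it is for this probe set on the deposited values. With each array centred on its median the log2 fold change was 0.33. A probe set of Hspa5 at a signal near 8.7 gave 0.40 without overlap. The dimmest gave -0.06, with every 4NQO tongue below every control tongue by a small margin.

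Xbp1 encodes the transcription factor that IRE1 activates by splicing, and secretory cells depend on it. It had 10.43, 10.08 and 10.51 in 4NQO tongues and 10.04, 10.04 and 9.98 in control tongues. The control tongues differed by at most 0.066, and 4NQO replicate 2 lay just above them. The fit gave a log2 fold change of 0.32 (standard error 0.14, 95% confidence interval -0.0054 to 0.64, limma adjusted p = 0.490). On the other 3 probe sets, which gave 0.19, 0.17 and -0.0016, the groups overlapped.

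Herpud1 encodes an ER membrane protein that serves ER-associated degradation and is a known target of both branches. It had 9.71, 9.51 and 10.15 in 4NQO tongues and 9.79, 10.31 and 9.77 in control tongues. The highest array of each group was 4NQO replicate 3 and control replicate 2, which also had the highest summed signal of salivary markers in their groups. 4NQO over control gave a log2 fold change of -0.17 (95% confidence interval -0.66 to 0.32, limma adjusted p = 0.812), and the other probe set gave -0.11.

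The signal of salivary markers differed between arrays far more than any of the stress genes. The summed signal of 7 markers was 212, 115 and 10924 in 4NQO tongues and 250, 6403 and 1370 in control tongues. Amy1, salivary amylase, and Bpifa2, a secreted protein of salivary glands, made up most of it, and 4 of the 7 markers lay below all array medians on all arrays. Bpifa2 had 2.10, 2.80 and 12.31 in 4NQO tongues and 2.31, 11.41 and 8.37 in control tongues, so it ranged from dim to among the bright signals within each group. Acinar cells of such glands carry much ER. Without the array of highest salivary signal in each group, log2 fold changes were -0.17 for Herpud1, 0.25 for Xbp1, 0.22 for Hspa5, 0.65 for Asns and 0.51 for Psat1. Those of Herpud1, Asns and Psat1 were about as large as with all arrays. The part of salivary glands in the spread of Herpud1 was not tested.

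**Figure D3:**
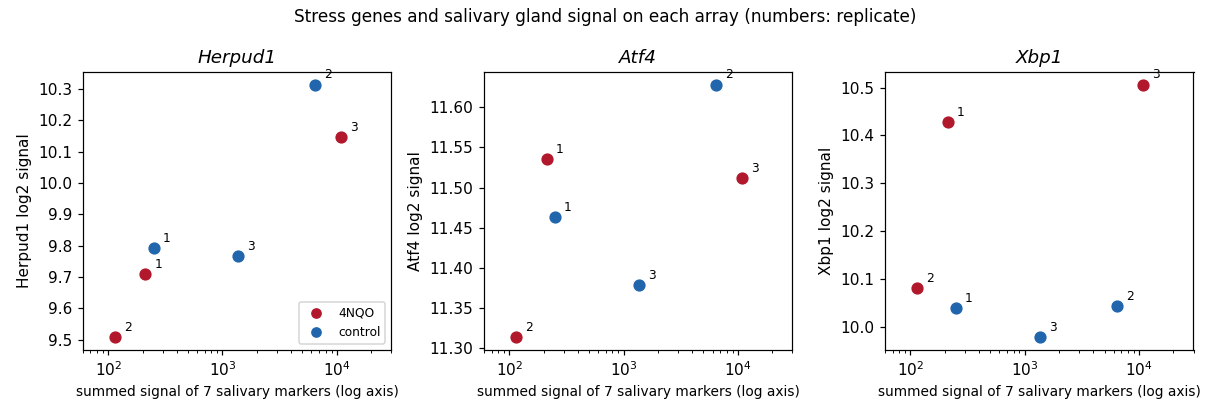
Log2 signal of Herpud1, Atf4 and Xbp1 (y axes, ranges differ) against the summed signal of 7 salivary markers (x axes, log scale) on each of 6 arrays, red for 4NQO and blue for control, with replicate numbers. Herpud1 is highest on 4NQO replicate 3 and control replicate 2, the arrays with summed signals of 10924 and 6403, while Xbp1 is also high on 4NQO replicate 1, at 212.

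The branches did not separate as branches. On a scale where each gene's control mean is 0, the mean of the 7 ATF4 branch genes was 0.31, 0.03 and 0.19 in 4NQO tongues and 0.02, -0.06 and 0.04 in control tongues. The mean of the 3 genes of the ER branch was 0.14, -0.08 and 0.34 in 4NQO tongues and 0.0033, 0.14 and -0.14 in control tongues. The ATF4 branch minus the ER branch was 0.17, 0.11 and -0.16 in 4NQO tongues and 0.01, -0.19 and 0.18 in control tongues, so the groups overlapped. Median log2 fold changes were 0.02 for the ATF4 branch and 0.26 for the ER branch, beside -0.01 over all genes.

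Within the ATF4 branch the genes were also split by role into enzymes and regulators, a split made after their values were seen, so it is a description with no test. The mean of Asns, Psat1 and Phgdh was 0.67, 0.23 and 0.47 in 4NQO tongues and -0.02, 0.12 and -0.10 in control tongues. That of Atf4, Atf3, Ddit3 and Trib3 was 0.03, -0.11 and -0.02 in 4NQO tongues and 0.05, -0.19 and 0.14 in control tongues. The enzymes lay above the control range in every 4NQO tongue, and the regulators lay inside it.

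Over the 6 arrays, the profiles most alike were those of Asns and Xbp1 (Pearson's r = 0.85, a description over 6 arrays that share the groups). Herpud1 was most like Atf4 (0.82), and so was Ddit3 (0.76). Hspa5 was most like Xbp1 (0.83), Phgdh like Atf4 (0.80) and Psat1 like Asns (0.76). Atf3 and Trib3 were most like each other (0.53) and ran against Atf4 and Herpud1, with the lowest value of any pair at -0.72 for Atf3 and Atf4.

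The wider pathway was followed through 9 lists with 128 measured genes. Of these, 1 rose at an adjusted p under 0.05 in limma (Slc7a11) and 0 fell. Before adjustment, 22 were higher and 2 lower at a p under 0.05, where 6.68% and 3.74% of all genes were. SAM called 1 of them higher. In 23 genes every 4NQO tongue lay above the control tongues, and in 5 every one lay below, where 9.59% and 7.18% of all genes did. The log2 fold change was positive in 84 of the 128 genes, where 47.7% of all genes were positive.

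Amino acid transporters had the highest median of the lists, 0.46 over 9 genes, of which 8 were positive, where 47.7% of all genes were. Slc7a11, the cystine transporter subunit, had 7.10, 6.65 and 6.32 in 4NQO tongues and 4.24, 4.36 and 4.18 in control tongues, and it was the gene of the list that rose (log2 fold change 2.43, limma adjusted p = 0.0116). Its control signals lie below the array medians, so the size of the rise is not established, and the call was lost without 4NQO replicate 2 and without control replicate 2. Slc7a11 is also a target of NRF2. Slc3a2, the heavy chain that Slc7a11 and other transporters share, had 10.30, 10.21 and 10.16 in 4NQO tongues and 9.21, 9.79 and 9.76 in control tongues. Its groups did not overlap, and its log2 fold change of 0.64 did not pass (limma adjusted p = 0.259). The neutral amino acid transporter Slc1a4 gave 0.93 without overlap (limma adjusted p = 0.267), and Slc7a1, a carrier of cationic amino acids, gave 0.78 with overlap.

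Enzymes of serine, one-carbon and proline synthesis included several with values near those of Asns and Psat1. Of 10 genes, 4 lay higher in every 4NQO tongue and 1 lower, where 9.59% and 7.18% of all genes did, and the median was 0.07. In limma 0 passed, with 4 higher and 1 lower at a p under 0.05 before adjustment, where 6.68% and 3.74% of all genes were. Psph, the phosphatase that ends serine synthesis, had 8.24, 8.04 and 8.05 in 4NQO tongues and 7.77, 7.56 and 7.44 in control tongues. With a log2 fold change of 0.52 (limma adjusted p = 0.277), it had nearly the value of Psat1, which acts just before it. Mthfd1l and Mthfd2, enzymes of mitochondrial folate metabolism, gave 0.66 and 0.50, and Aldh18a1, which starts proline synthesis, gave 0.65, all without overlap. Got1, an aspartate aminotransferase, was the gene that lay lower, at -0.27.

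Stress-induced regulators of the response had values on both sides of 0. Of 14 genes, 10 had a negative log2 fold change, where 52.3% of all genes did, and the median was -0.12. In limma 0 of them passed, with 2 higher and 1 lower at a p under 0.05 before adjustment, where 6.68% and 3.74% of all genes were. Groups did not overlap in 2 genes that lay higher and in 1 that lay lower, against 9.59% and 7.18% of all genes. The gene that lay lower was Stc2, a secreted glycoprotein, at -0.32 and with signals near the array medians. Chac1, which breaks down glutathione and is a sensitive target of ATF4, had 7.34, 7.38 and 7.68 in 4NQO tongues and 7.30, 8.11 and 8.90 in control tongues. The control tongues spread over 1.6, and the log2 fold change of -0.64 did not pass (limma adjusted p = 0.581). Vldlr, a lipoprotein receptor, gave -0.89 with overlapping groups (limma adjusted p = 0.314). Cth, the enzyme that makes cysteine from cystathionine, gave 0.50 and Sesn2, a stress-induced inhibitor of mTORC1, gave 0.42, and both lay higher in every 4NQO tongue without passing.

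Aminoacyl-tRNA synthetases, many of which ATF4 turns on, had a median of -0.0078 over 20 genes, with 10 positive and 10 negative. The values ran from -0.30 for Eprs to 0.41 for Hars, with Xpot, which exports tRNA from the nucleus, at 0.30 and Gars at 0.21. In limma 0 passed, and 0 had a p under 0.05 before adjustment. The kinases and phosphatase subunits of eIF2 had a median of -0.11 over 6 genes, with 0 passing in limma and 0 at a p under 0.05 before adjustment. Eif2ak4, which encodes GCN2, the sensor of amino acid shortage, had 3.48, 4.10 and 4.13 in 4NQO tongues and 4.27, 4.51 and 4.27 in control tongues. It was lower in every 4NQO tongue, at signals below the array medians, with a log2 fold change of -0.45 (limma adjusted p = 0.496). Eif2ak1 (-0.24), Eif2ak2 (-0.15) and Ppp1r15b (0.18), which encode the kinases HRI and PKR and a phosphatase subunit, overlapped between groups.

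The sensors of the unfolded protein response had a median of 0.07 over 11 genes, with 0 passing in limma and 0 at a p under 0.05 before adjustment. Atf6, the sensor that is cleaved in the Golgi, had 7.89, 8.01 and 7.87 in 4NQO tongues and 8.03, 8.21 and 8.18 in control tongues. It was lower in every 4NQO tongue by a small margin (log2 fold change -0.22, limma adjusted p = 0.605). Atf6b, its paralog, gave 0.27 with overlap, Creb3l2, a transcription factor anchored in the ER, -0.22, and Ern2, the IRE1 form of mucosal epithelia, -0.26.

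Genes of ER protein folding, degradation and transport mostly had small positive values. Of 58 genes in these 3 lists, 46 had a positive log2 fold change, where 47.7% of all genes did. In limma 0 passed, with 12 higher and 0 lower at a p under 0.05 before adjustment, where 6.68% of all genes were higher and 3.74% lower. In 13 genes every 4NQO tongue lay above every control tongue and in 0 genes below, against 9.59% and 7.18% of all genes. The medians were 0.24 over 25 chaperones and folding enzymes, 0.17 over 16 genes of ER-associated degradation and 0.19 over 17 genes of translocation and vesicle transport. Beside these values, the proliferating-cell markers were higher in every 4NQO tongue. Summed signals of 7 plasma cell markers, a secretory cell type, were 1495 to 2247 in 4NQO tongues and 1182 to 1506 in control tongues, which overlapped. Most of that sum was Sdc1, which keratinocytes also express, with 10.98, 10.74 and 10.33 in 4NQO tongues and 10.16, 9.98 and 10.37 in control tongues, and 3 of the 7 (Jchain, Tnfrsf17 and Pou2af1) lay below all array medians. The part of these cells in the ER values was not tested.

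Among the chaperones, Manf, a protein that ER stress releases, had 9.88, 9.78 and 10.04 in 4NQO tongues and 9.51, 9.13 and 9.20 in control tongues. Its groups were apart, with a log2 fold change of 0.62 (standard error 0.15, limma adjusted p = 0.194). Canx, calnexin, gave 0.51 and Fkbp2, a prolyl isomerase, 0.41 without overlap, and Sdf2l1, a partner of BiP, gave 0.66 with overlap. Of the degradation genes, Derl2 of the derlin family had the smallest p and gave 0.50, and Herpud2, the paralog of Herpud1, gave 0.26, both without overlap, and Selenos, an ER selenoprotein, gave 0.22. Herpud1 itself gave -0.17.

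Derl3, a dim derlin, had the largest value of these lists, 0.91, with overlapping groups. Of the genes of entry into the ER, Ssr2, a subunit of the translocon-associated complex, had 8.96, 8.73 and 8.89 in 4NQO tongues and 8.29, 8.20 and 7.75 in control tongues. The fit gave a log2 fold change of 0.78 (standard error 0.17, limma adjusted p = 0.171). Sec61b, a subunit of the translocation channel, gave 0.70 and Sec11c of the signal peptidase 0.69, both without overlap. Sec23b of the COPII coat, which serves export from the ER, gave 0.33 without overlap. None of these passed the threshold in limma.

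**Figure D4:**
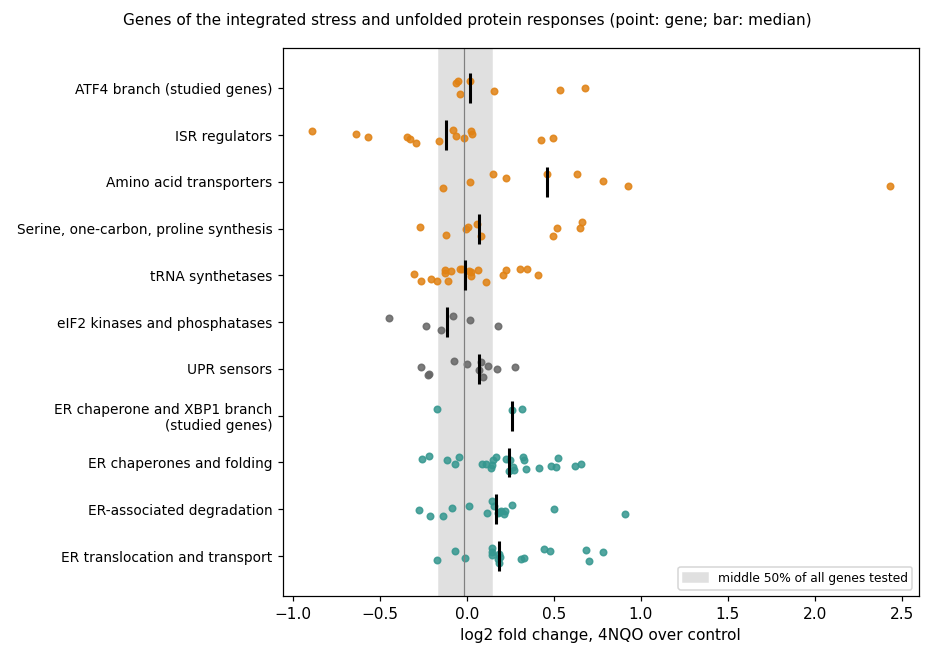
Log2 fold change of 4NQO over control (x axis) for each measured gene of the 2 branches studied and of 9 lists of the wider pathway (rows), with black bars for list medians and a grey band for the middle 50% of all 18193 genes. Medians run from -0.12 for regulators of the integrated stress response (ISR) to 0.46 for amino acid transporters, and Slc7a11 at 2.43 is the point far to the right.

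The promoter letters shown above were also looked up in the listed genes. Of 138 listed genes, 112 had a promoter in the RefSeq table. The CARE letters stood in 19 of them, of which 8 had a positive and 11 a negative log2 fold change, with a median of -0.06. The 93 without CARE letters had a median of 0.15. Among these 19, Asns, Slc7a11, Slc1a4 and Faf2 were higher in every 4NQO tongue, Got1 was lower in every one, and Atf3, Trib3, Chac1 and Nupr1 overlapped. Of all genes, 9.59% were higher in every 4NQO tongue, 7.18% were lower in every one, and 47.7% had a positive log2 fold change. Of the 468 genes tested that had CARE letters, 7.91% were higher in every 4NQO tongue. The ERSE letters stood in 10 of the 112 listed genes, 9 with a positive log2 fold change and a median of 0.24. Their values ran from -0.04 to 0.91, and those of Hspa5, Canx, Creld2 and Derl3 were the largest. Only 1 of the 10, Canx, was higher in every 4NQO tongue, and 0 were lower in every one. Of the 20 genes tested that had ERSE letters, 10% were higher in every 4NQO tongue. The 102 listed genes without ERSE, which include the lists outside the ER, had a median of 0.09. Of the genes with ERSE, 7 come from the list of chaperones and folding enzymes, whose own median was 0.24. Over all genes tested, the 468 with CARE letters had a median of -0.01 and the 20 with ERSE letters one of 0.16. The listed genes are part of those sets, so the values are not independent of each other, and no difference between them was tested.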

How the data were processed

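Tongues of 3 4NQO-treated and 3 control C57BL/6J mice were profiled on Affymetrix mouse arrays with 45101 probe sets. The authors' pre-processing used R and Bioconductor, and they deposited 1 log2 signal for each probe set and array. Which normalization this was is not given in the sources used. The number of arrays limits the precision. The limma p-values weigh the group difference against the spread within the groups of these 6 tongues, moderated over all genes.

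The platform annotation gave 34945 probe sets 1 gene and 932 several, and the 932 were left out. A gene's brightest probe set by mean log2 signal stands for it. Groups were compared with limma 3.58.1 in R 4.3.3 (lmFit, and eBayes with a trend on intensity). Benjamini-Hochberg adjustment was done over 18193 genes, with a threshold of 0.05, and confidence intervals are at 95%. The test was checked on simulated data. SAM, the method the study names, was run as an alternative with all 20 label permutations.

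The 10 genes, the lists and the tests were chosen with earlier results of these data known. Named are the 10 genes and, of each list, the 4 genes with the smallest p. Got1, Nupr1, Creld2, Faf2, Stc2 and the cell type markers were named after their values were seen. Of 135 listed genes, 128 were measured. The alternatives were other array normalizations, probe set choices, variance models and thresholds, the replicate block and leaving out arrays. Chosen after seeing the data were 3 of them, leaving out the arrays of largest Gapdh difference, leaving out those of highest salivary signal, and a covariate for the Gapdh difference. Lists are described by counts and medians.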

Additional observations from a re-analysis of the deposited data

How the results depend on the processing

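None of the 10 genes passed the threshold under any alternative run, and Asns, Psat1 and Hspa5 kept a positive value under each refit (0.57 to 0.86 for Asns, 0.43 to 0.82 for Psat1 and 0.17 to 0.40 for Hspa5, with the dimmest probe set of Hspa5 at -0.061). The smallest adjusted p of Asns was 0.0983 in limma, with each array centred on its median. Values near 0 changed sign, and the cause was not tested. Atf4 gave 0.038 with each array centred on its median, 0.067 as the mean of its probe sets, 0.45 on the probe set with the largest variance, which is also one of its dimmer probe sets, and 0.0032 without the arrays of highest salivary signal. Atf3 gave -0.37 without those same arrays. Ddit3 gave 0.023 with centred arrays and 0.035 without the pair of arrays of largest Gapdh difference. Trib3 gave 0.015 with centred arrays, 0.073 as the mean of its probe sets and 0.21 on its other probe set, which has the larger variance. Without the pair of arrays of largest Gapdh difference, Trib3 gave 0.11. Xbp1 gave -0.0016 on its dimmest probe set, which has the largest variance. Leaving out 1 array at a time, values ran from -0.092 to 0.033 for Atf4, -0.31 to 0.21 for Atf3, -0.13 to 0.057 for Ddit3, -0.19 to 0.11 for Trib3, -0.11 to 0.38 for Phgdh and -0.35 to 0.0089 for Herpud1. Medians on the probe sets with the largest variance were 0.21 for the ATF4 branch, -0.0016 for the ER branch, 0.82 for the ATF4 branch enzymes and 0.11 for the regulators, and the ATF4 branch ran from -0.077 to 0.15 without 1 array.

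The number of genes higher over all genes, 23 in limma, was 63 with centred arrays, 15 with the mean of probe sets, 14 with the largest variance, 43 with a robust variance model, 102 with the Gapdh covariate, 103 at an adjusted p under 0.1 and 83 by SAM. It was 4 without the pair of arrays of largest Gapdh difference and 0 without those of highest salivary signal (fewer samples). Without 1 array it was 0 to 25, with 0 without control replicate 2, 1 without 4NQO replicate 2 and 10 without 4NQO replicate 1. The number lower, 1, was 2 with centred arrays or no trend, 3 without dim genes, 4 with the robust model, 5 with the covariate, 8 at 0.1, and 0 by SAM, without either pair of arrays, and 0 to 2 without 1 array. With the replicate number as a replicate block it was 2 higher and 0 lower. Same-numbered arrays had r of deviations of 0.29, -0.51 and 0.05. Deviations from a mean of 3 arrays depend on each other, so these values cannot show whether the numbers pair the tongues. The 1 listed gene that rose, Slc7a11, was lost (0 genes) with the mean of probe sets, with the replicate block, without either pair of arrays, and in the range of 0 to 1 without 1 array. Of the 58 ER genes, 41 to 50 were positive under the alternatives that held all of them.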
